A study of Mus musculus with 6 samples.

Results

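Bone marrow cultures that had received medium conditioned by the cell lines VpR99 and VpR126 were compared with cultures that had received medium of the lines VpR83 and VpR2020. Each medium was represented by 1 library, so the comparison set 2 libraries against 2 and used 4 of the 6 RNA-seq libraries of the series. The pairs were chosen by the level of interferon-induced genes in these same libraries, with Ifit1, Isg15 and Irf7 as markers. The levels of such genes are therefore a description of how the pairs were chosen, no test was run between the pairs, and an exact permutation test of 2 against 2 could not have gone below a two-sided p of 0.333. The remaining libraries, labelled bone marrow in control medium (replicates 1 and 2), served as a reference level and, as the only labelled replicates, as a yardstick of spread. The questions asked of the data were which genes outside lists of interferon pathway genes separated the same pairs of media, and on which side of control each pair lay.

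All libraries were of total RNA from mouse (Mus musculus) bone marrow. The conditioned media came from VpR cells, lines of clear cell renal cell carcinoma (ccRCC), a tumour of the kidney epithelium, and conditioned medium is medium in which such cells have grown. The labels name the controls as control medium, whereas the text on the study's design names marrow that had just been isolated, so time in culture and medium cannot be told apart as differences from the controls. The column names of VpR83, VpR99 and VpR126 carry the extra tags Ctrl, T1 and LT2, which the labels leave unexplained. The strain, age and sex of the animals, the genotype of the cells, culture times and batches are not stated in the labels, nor whether cultures or animals were separate.

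Type I interferons are secreted proteins that bind the receptor made of Ifnar1 and Ifnar2 on nearly all cells. The receptor's kinases Jak1 and Tyk2 activate transcription factors such as Stat2, which acts with Irf9 in a complex that enters the nucleus and binds the interferon-stimulated response element in the promoters of many antiviral genes. Macrophages and their precursors in the marrow carry sensors of foreign and misplaced nucleic acid that can start this response, and Irf7, itself induced by interferon, amplifies it.

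Total counts were 28055913 (VpR83), 129120559 (VpR99), 25714176 (VpR126) and 19412158 (VpR2020), and 27448621 and 18629708 in the controls. VpR99 was thus 6.65 times as deep as the shallowest medium library, and a count of 0 allowed up to 0.0232 counts per 1000000 (CPM) there and up to 0.155 CPM in VpR2020, which covers counting error only. Summed macrophage markers (18 genes, among them Adgre1, Csf1r, Mrc1 and C1qa) reached between 7843 and 18264 CPM under the 4 media and 771 and 708 CPM in the controls, while 13 erythroid genes summed to at most 5.23 CPM under the media. Of 12111 genes with a mean of at least 1 CPM over the 4 media, 368 (3.04%) differed at least 2-fold between the controls. Between media the numbers were 905 (7.47%) for VpR83 and VpR2020 and 2293 (18.9%) for VpR99 and VpR126. The latter was the highest count among the 6 pairings of media, so the libraries with high interferon genes were, over all genes, less alike than either was to VpR83 or VpR2020 (1245 genes, 10.3%, and 2203, 18.2%, against VpR83, and 1966, 16.2%, and 1487, 12.3%, against VpR2020). All levels below are CPM scaled by edgeR's trimmed mean of M-values (TMM), are not divided by gene length and so compare libraries, not genes. In bulk RNA, fewer cells of a type and less RNA per cell cannot be told apart.

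A gene was called set apart where both libraries of one pair lay at least 2-fold beyond both libraries of the other on the scale of log2 CPM with a prior count of 2. Under VpR99 and VpR126 medium 287 genes (2.37% of 12111) were set apart as higher and 54 (0.446%) as lower. With only non-overlap asked, 1968 genes (16.2%) were higher and 2170 (17.9%) lower, and the median difference between pair means over all genes was -0.02 log2 units. Of the 287 higher genes, 58 belonged to the lists of interferon pathway genes, 18 more carried names of interferon-induced families, and 211 had neither mark. The lists and names are not complete, so the 211 can still hold interferon-induced genes and are not a set independent of how the pairs were chosen. Over all 12111 genes, 11994 lay outside those lists. None of the 54 lower genes was in them, which says little, as so few of all genes were. Within the higher genes VpR126 exceeded VpR99 in 216, and by at least 2-fold in 76, whereas VpR99 exceeded VpR126 at least 2-fold in 14. The controls differed at least 2-fold in 21 of the 287 higher and 7 of the 54 lower genes, both larger shares than the 3.04% of all genes. At the threshold, the least separated higher genes were Lgr5, Gm16675 and Nlrc5, and the interferon-inducible gene Ifi204 fell just short of it.

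**Figure D1:**
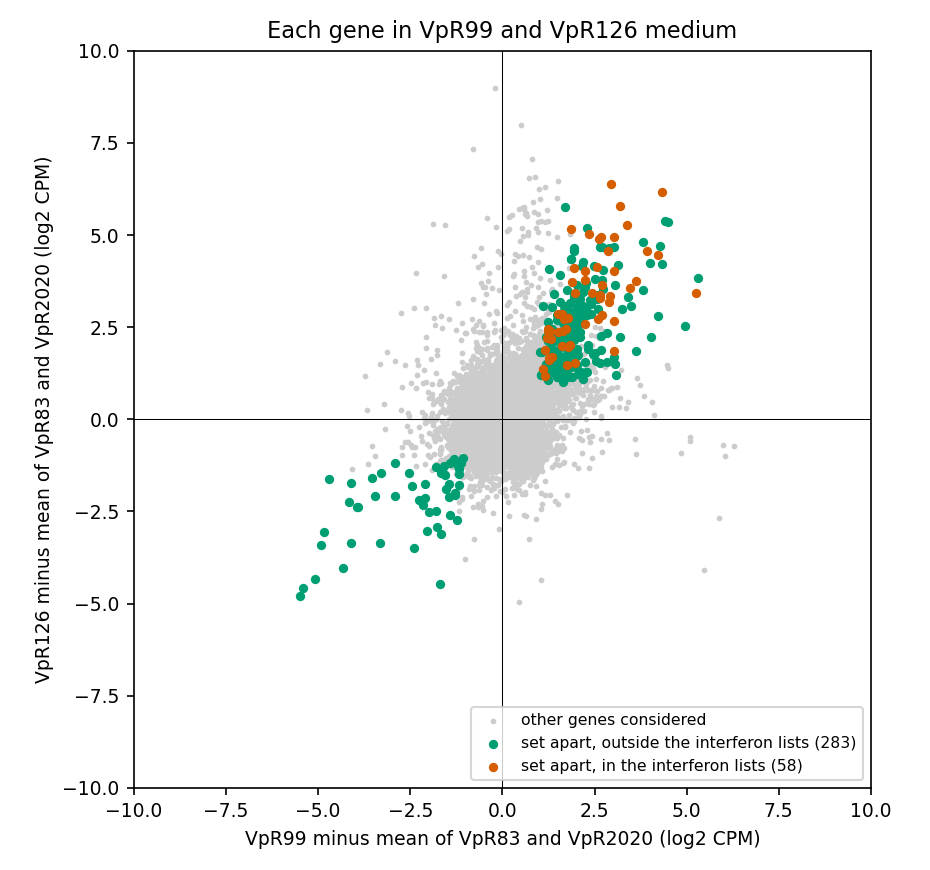
Each of 12111 genes by its difference in VpR99 (horizontal axis) and in VpR126 (vertical axis) from the mean of VpR83 and VpR2020, in log2 CPM. Orange points are the 58 set-apart members of the interferon lists and green points the other 283 set-apart genes, 54 of which lie at lower left. Grey genes along the upper vertical axis are high under VpR126 medium alone.

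Interferon-stimulated genes were the group by which the media had been paired, and 41 of the 52 measured members were set apart as higher and none as lower. The 3 markers of the rule illustrate the levels. Ifit1, an antiviral protein that binds foreign RNA, had 8.85 and 15 CPM under VpR83 and VpR2020 medium, 84.1 and 272 under VpR99 and VpR126 medium and 4.66 and 5.16 in the controls. Isg15, a ubiquitin-like modifier, had 8.56 and 12.1 CPM under VpR83 and VpR2020 medium, 83.2 and 167 under VpR99 and VpR126 medium and 12.7 and 10.6 in the controls. Irf7 had 21.5 and 27.7 CPM under VpR83 and VpR2020 medium, 370.5 and 584 under VpR99 and VpR126 medium and 43.1 and 53.4 in the controls. VpR83 and VpR2020 lay near the controls for Isg15, somewhat below them for Irf7 and somewhat above for Ifit1, and the 2 high libraries lay above all others for each marker, VpR126 above VpR99.

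The genes with the widest gap were not all of this shape. Oasl1, a relative of the oligoadenylate synthetases that sense double-stranded RNA, had 3.22 and 5.81 CPM under VpR83 and VpR2020 medium against 82.3 and 95.6 under VpR99 and VpR126 medium, and the synthetase gene Oas3 had 26.9 and 28.8 against 345 and 375. In both genes VpR99 and VpR126 were close to each other and the controls (8.26 and 10.5 CPM for Oasl1 and 52.8 and 75.3 for Oas3) lay above VpR83 and VpR2020. Ifi44, an interferon-induced antiviral gene, showed the largest difference between pair means, 5.25 log2 units or 38.1-fold, with 0.585 and 2.99 CPM against 28 and 99.4. Slfn4, a Schlafen gene of myeloid cells, ran in another order. It had 17.1 and 11 CPM under VpR83 and VpR2020 medium, 523 and 147 under VpR99 and VpR126 medium and 278 and 279 in the controls, so that here VpR99 was highest and the low pair lay far below control. Isg20, an exonuclease gene, likewise had 2.52 and 2.43 CPM against 18.9 and 23, with 54.8 and 35.7 in the controls.

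**Figure D2:**
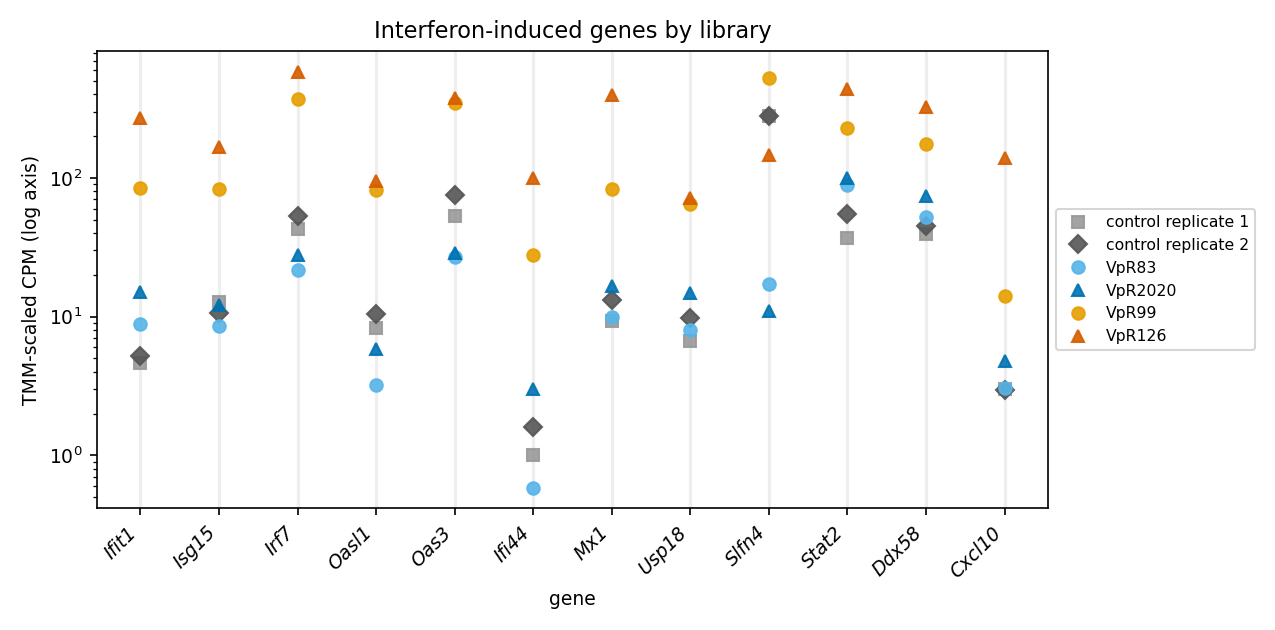
TMM-scaled CPM (log axis) of 12 interferon-induced genes in each of the 6 libraries, 1 point per library. VpR99 and VpR126 (orange) lie above VpR83 and VpR2020 (blue) in every gene shown, as the choice of pairs fixes. Slfn4 is the gene in which the controls (grey) lie far above the blue points, at 278 and 279 CPM.

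Promoter sequence does not depend on the counts, but the higher genes were picked by counts from pairs formed on interferon genes. Their share with the element follows in part from that choice and is no independent evidence. Short windows are shown because they hold the element that the pathway's transcription complex reads. RefSeq windows (GRCm38.p6, 250 bases before to 50 after a transcription start) were searched on both strands for GAAA, any 2 bases and GAAA in a row, overlapping matches included, and a gene counted once. The windows below run 5′ to 3′ on the strand of the gene, lie before the start, and carry the match in capitals. TTTC, any 2 bases and TTTC is the same element read from the other strand.
Ifit1: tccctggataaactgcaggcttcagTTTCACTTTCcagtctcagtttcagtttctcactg
Isg15: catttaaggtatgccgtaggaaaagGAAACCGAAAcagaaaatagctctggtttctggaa
Oas3: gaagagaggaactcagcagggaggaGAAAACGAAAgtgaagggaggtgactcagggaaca
Ifi214: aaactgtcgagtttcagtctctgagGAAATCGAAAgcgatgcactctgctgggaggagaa
Socs1: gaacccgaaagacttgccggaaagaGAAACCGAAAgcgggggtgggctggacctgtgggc
Cxcl10: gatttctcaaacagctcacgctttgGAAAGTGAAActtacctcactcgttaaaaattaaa
Stat2: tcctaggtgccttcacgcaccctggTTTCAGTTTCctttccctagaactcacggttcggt
Cxcl14: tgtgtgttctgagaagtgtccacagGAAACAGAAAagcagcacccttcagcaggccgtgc
These lie at chr19:34640760-34640819 on the plus strand (Ifit1), chr4:156200856-156200915 on the minus strand (Isg15), chr5:120777700-120777759 on the minus strand (Oas3), chr1:173536002-173536061 on the minus strand (Ifi214), chr16:10785579-10785638 on the minus strand (Socs1), chr5:92349068-92349127 on the minus strand (Cxcl10), chr10:128270251-128270310 on the plus strand (Stat2) and chr13:56296689-56296748 on the minus strand (Cxcl14). The match begins 104, 72, 75, 79, 77, 213, 222 and 172 bases before the start, in that order. Before the start Isg15 holds 3 overlapping matches and Ifit1 and Socs1 hold 2 each, of which 1 is capitalised. Irf7 and Oasl1 have no match in the part of the window that lies before the start.

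The element was found in 385 of 9365 considered genes with a window (4.11%, Wilson 95% interval 3.73 to 4.53) and in 1131 of all 32851 windows of the table (3.44%). It was found in 42 of 204 higher genes (20.6%, 15.6 to 26.7) and in 1 of 44 lower genes, Cxcl14 (2.27%, 0.402 to 11.8). The intervals treat genes as independent. Some higher genes share an element (Ifit1 and Ifit1bl2) or have nearly the same window (Ifi206, Ifi208 and Ifi213), so the interval of the higher genes is too narrow. Among higher genes in the interferon lists 26 of 44 held the element (59.1%), and among those outside the lists 16 of 160 (10%). Outside lists and family names 9 of 145 held it (6.21%, 3.30 to 11.4), an interval that includes the 4.11% of all considered genes. Windows existed for 77.3% of the considered genes and 71.1% of the higher genes. Since fewer than 80% had one, the shares describe the matched genes, and as a check of the whole set they are void.

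Interferon ligands were barely detected. Ifnb1, the interferon beta gene, had 8 counts in VpR99 and 4 in VpR126 and 0 in the 4 other libraries. Its TMM-scaled level in VpR126 was 0.169 CPM. Before TMM scaling, a count of 0 allows up to 0.107 CPM in VpR83 and 0.155 CPM in VpR2020. As the scales differ, the narrow margin over VpR2020 is uncertain. The level of 0.0648 CPM in VpR99 is below both limits, so a difference between the pairs was not detectable at this depth. The 4 interferon alpha genes examined and Ifne and Ifnl3 had 0 counts everywhere. The receptor genes Ifnar1 and Ifnar2 did not separate the pairs: Ifnar1 had 259.6 and 283 CPM under VpR83 and VpR2020 medium and 217 and 302 under VpR99 and VpR126 medium, and Ifnar2 106 and 125 against 93.6 and 134. In both receptor genes VpR99 was the lowest medium library and VpR126 the highest. Ifnlr1, a subunit of the interferon lambda receptor, was the 1 set-apart gene of the 6 measured ligand and receptor genes, at 1.35 and 1.99 CPM against 5.7 and 4.64, all below the controls (24.9 and 40.8).

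Among 11 genes of signal transduction, 2 were set apart as higher and 7 were higher without overlap (2.37% and 16.2% of all genes), and the list median was 0.35 log2 units. Stat2 had 88.8 and 99.3 CPM under VpR83 and VpR2020 medium, 228 and 437 under VpR99 and VpR126 medium and 36.6 and 54.6 in the controls. Socs1, which encodes a feedback inhibitor of the kinases, had 2.49 and 2.88 CPM under VpR83 and VpR2020 medium and 9.25 and 10.6 under VpR99 and VpR126 medium. Irf9 (52.4 and 57.8 against 87 and 102 CPM) did not overlap between the pairs but was not 2-fold apart throughout. The kinase genes Jak1 and Tyk2 overlapped, with differences of 0.20 and 0.32 log2 units.

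Of 27 sensors of nucleic acid, adaptors and IRF factors, 12 were higher and 1 was lower without overlap (16.2% and 17.9% of all genes). Of the 27, 9 were set apart without VpR99, where the count over all genes rose from 287 to 885. With all libraries 4 were set apart as higher (2.37% of all genes), namely the RNA helicase sensors Ifih1, Ddx58 and Dhx58 and the Z-form nucleic acid sensor Zbp1, and the list median was 0.25. Ddx58 had 52.6 and 74.1 CPM under VpR83 and VpR2020 medium, 177 and 322 under VpR99 and VpR126 medium and 39.3 and 44.7 in the controls. Zbp1 had 12.8 and 33.3 CPM against 112 and 224. The Toll-like receptor genes behaved otherwise: Tlr7 had 249.9 and 365 CPM under VpR83 and VpR2020 medium and 146 and 294 under VpR99 and VpR126 medium, and Tlr9 38.3 and 67.6 against 26.7 and 136, with VpR99 the lowest of the 4 media in both. Tmem173, the gene of the adaptor STING, lay between 84.8 and 89.6 CPM in the 4 media, and Irf3, a factor that needs no induction, between 37.4 and 43.2.

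Interferon-induced GTPases and gamma targets divided into those that followed the pairs and those that did not. Of 21 measured genes 10 were set apart as higher, against 2.37% of all genes (median of the list 2.18). Iigp1, an immunity-related GTPase, had 0.439 and 3.76 CPM under VpR83 and VpR2020 medium and 10.5 and 113 under VpR99 and VpR126 medium, and the chemokine gene Cxcl10 3.07 and 4.81 against 14.2 and 140.1. Among the guanylate-binding protein genes the pairs overlapped in 7 of 8, as they did in 7973 of all 12111 genes. Gbp2 had 21.8 and 76.8 CPM under VpR83 and VpR2020 medium and 59 and 446 under VpR99 and VpR126 medium, and Gbp8 2.49 and 64.4 against 14 and 51.1. VpR2020 exceeded VpR99 in both, and VpR83 lay lowest. Without VpR2020, 19 of the 21 genes were set apart, and without VpR99, 17, while the count over all genes rose from 287 to 622 and 885.

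All 18 genes of MHC class I presentation were higher in both libraries of the high pair (list median 1.03), against 16.2% of all genes. Of the 18, 4 were set apart, against 2.37% of all genes. B2m, the shared light chain, had 1148 and 1463 CPM under VpR83 and VpR2020 medium and 2140.4 and 3208 under VpR99 and VpR126 medium. Tap1, a subunit of the peptide transporter, had 75.7 and 77.7 CPM under VpR83 and VpR2020 medium, 202 and 272 under VpR99 and VpR126 medium and 124 and 149 in the controls. The nonclassical genes H2-Q6 (2.63 and 3.87 against 21.3 and 37.7 CPM) and H2-Q7 (3 and 2.38 against 16.4 and 28) showed the widest gaps, and with 119 and 104 and 61.4 and 63.1 CPM in the controls all media lay below control. H2-Q6 and H2-Q7 are near-identical copies, so the division of reads between them is uncertain. Without VpR99, 11 of the 18 were set apart, while the count over all genes rose from 287 to 885 (622 without VpR2020). Of 14 MHC class II genes none was set apart and 8 overlapped (median 0.60). Without overlap 5 were higher and 1 was lower (16.2% and 17.9% of all genes). Without VpR99, 6 were set apart (median 1.16), without VpR2020, 2 (0.78), and the median was 0.07 without VpR126 and 0.33 without VpR83. Cd74, the class II invariant chain, had 297 and 385 CPM against 348 and 1049, so VpR126 alone was high.

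In 12 spans at least 4 set-apart genes were neighbours on a chromosome, with at most 500 kb from one start to the next. Each span runs from the first to the last of its set-apart genes. Both ends are therefore set apart by construction, which raises the share within a span. The Ifi200 family on chromosome 1 (173468485 to 174031810, GRCm38), whose products bind DNA, held 8 set-apart genes among 12 considered in the span, the oligoadenylate synthetase region on chromosome 5 (120648812 to 120907521) 8 of 8 with Rasal1 and Dtx1 among them, the Ifit genes on chromosome 19 (34550694 to 34650009) 5 of 6, the Schlafen genes on chromosome 11 (82951349 to 83215154) 5 of 9 and the Ly6 genes on chromosome 15 (74747852 to 75111970) 6 of 7. Chromosome 7 held 4 of 4 genes at the Trim30 locus (104355382 to 104502149) and 4 of 4 at the Gvin locus (105895139 to 106511671), and chromosome 14 held 4 of 4 at the Phf11 locus (59244441 to 59365470). The remaining 4 spans were less dense, with 6 of 34 genes on chromosome 17 (the region of H2-Q6), 4 of 9 on chromosome 11 at Irgm1, 4 of 8 on chromosome 6 and 4 of 7 on chromosome 18 at Iigp1. Ifi214, with 0.329 and 0.276 CPM against 5.57 and 6.63, had the widest gap of all 287 genes. Ifi213 had 1.61 and 5.86 CPM against 67 and 130.0, Ifi206 2.09 and 8.35 against 81.6 and 110.0 and Ifi208 1.39 and 3.98 against 33.7 and 67.1. Ly6a, which encodes the stem cell antigen Sca-1, had 13.9 and 31.5 CPM under VpR83 and VpR2020 medium, 654 and 122 under VpR99 and VpR126 medium and 9.22 and 12 in the controls, with VpR99 far above VpR126. Members of these families resemble one another closely, and how the authors' counting assigned shared reads is not stated in the labels or notes, so single values in these families are uncertain.

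Spon1 and Clu were among the higher genes with the widest gaps outside the interferon lists. Spon1, a matrix protein gene, had 2, 4, 442 and 79 counts in VpR83, VpR2020, VpR99 and VpR126, which are 0.0732 and 0.221 against 3.58 and 3.33 CPM. Clu, the gene of the extracellular chaperone clusterin, had 1.24 and 1.11 CPM under VpR83 and VpR2020 medium, 10.8 and 22.4 under VpR99 and VpR126 medium and 2.16 and 2.63 in the controls. Col18a1, a basement membrane collagen gene, had 1.17 and 0.608 CPM against 5.27 and 8.61 and 0.433 and 0.516 in the controls, while the collagen gene Col5a3 had 0.22 and 0.221 against 1.27 and 9.79 CPM with 26.5 and 27.5 in the controls. Clu and Col18a1 were at least 2-fold above control in both libraries of the high pair only, and Col5a3 was below control in both pairs. Armcx1, Myct1 and Serpina3g belonged to the genes in which VpR83 and VpR2020 lay below control: Myct1 had 0.0732 and 0.221 CPM against 1.43 and 4.6, with 3 and 3.1 in the controls.

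Cytokine genes and NF-kB targets were higher in part. Of 25 measured genes 4 were set apart and 16 were higher without overlap (2.37% and 16.2% of all genes), with a median of 1.01. Il1rn, the interleukin 1 receptor antagonist gene, had 16.2 and 24 CPM under VpR83 and VpR2020 medium, 189.5 and 158 under VpR99 and VpR126 medium and 53.4 and 75 in the controls. Il10, an anti-inflammatory cytokine gene, had 0.402 and 0.498 CPM against 1.77 and 10.2, Il12a 0.549 and 0.608 against 2.27 and 4.43, and the acute-phase gene Saa3 73.5 and 34.6 against 375 and 1274. The antagonist was similar in VpR99 and VpR126, whereas Il10 and Saa3 were several times higher in VpR126. Tnf overlapped between the pairs (46.2 and 22.4 against 39.5 and 57.5 CPM), and Il1b was higher by 1.01 log2 units, but its controls stood at 394 and 83.5 CPM. Without VpR99, 16 of the 25 were set apart, and without VpR83, 8, while the count over all genes rose from 287 to 885 and 456.

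Of 18 measured chemokine genes, 2 were set apart as higher and 1 as lower (2.37% and 0.446% of all genes). Without overlap 8 were higher and 1 was lower (16.2% and 17.9% of all genes). Ccl8, a monocyte attractant, had 9, 2, 1186 and 82 counts in VpR83, VpR2020, VpR99 and VpR126, or 0.329 and 0.111 against 9.61 and 3.46 CPM. Cxcl5, a neutrophil attractant, had 0.11 and 0.719 against 3.66 and 3.46 CPM. Cxcl14, a chemokine made by epithelia, ran the opposite way, with 57.1 and 57.3 CPM under VpR83 and VpR2020 medium, 3.13 and 12 under VpR99 and VpR126 medium and 1.07 and 0.986 in the controls. Ccl2 (301 and 166 against 946 and 156 CPM) and Ccl7 (157 and 81.5 against 612 and 82.8) were high in VpR99 alone, and Ccl5 in VpR126 alone (3.48 and 137 CPM in VpR99 and VpR126). Without VpR126, 10 chemokine genes were set apart as higher, while the count over all genes rose from 287 to 554.

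The metalloproteinase genes Mmp12, which encodes macrophage elastase, and Mmp13, a collagenase gene, were the 2 set-apart members of 16 measured remodelling genes. Over all genes 2.37% were set apart as higher. Mmp12 had 103 and 329 CPM under VpR83 and VpR2020 medium, 2074 and 1563 under VpR99 and VpR126 medium and 0.2 and 0 in the controls. Mmp13 had 9.55 and 33.2 CPM under VpR83 and VpR2020 medium and 295 and 83.9 under VpR99 and VpR126 medium, against 0.433 and 0.141 in the controls. All 4 media lay above control for both genes, and the high pair lay further above. Mmp9 overlapped, with 209 and 815 CPM against 285 and 2416. Without VpR99, 6 remodelling genes were set apart, while the count over all genes rose from 287 to 885.

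**Figure D3:**
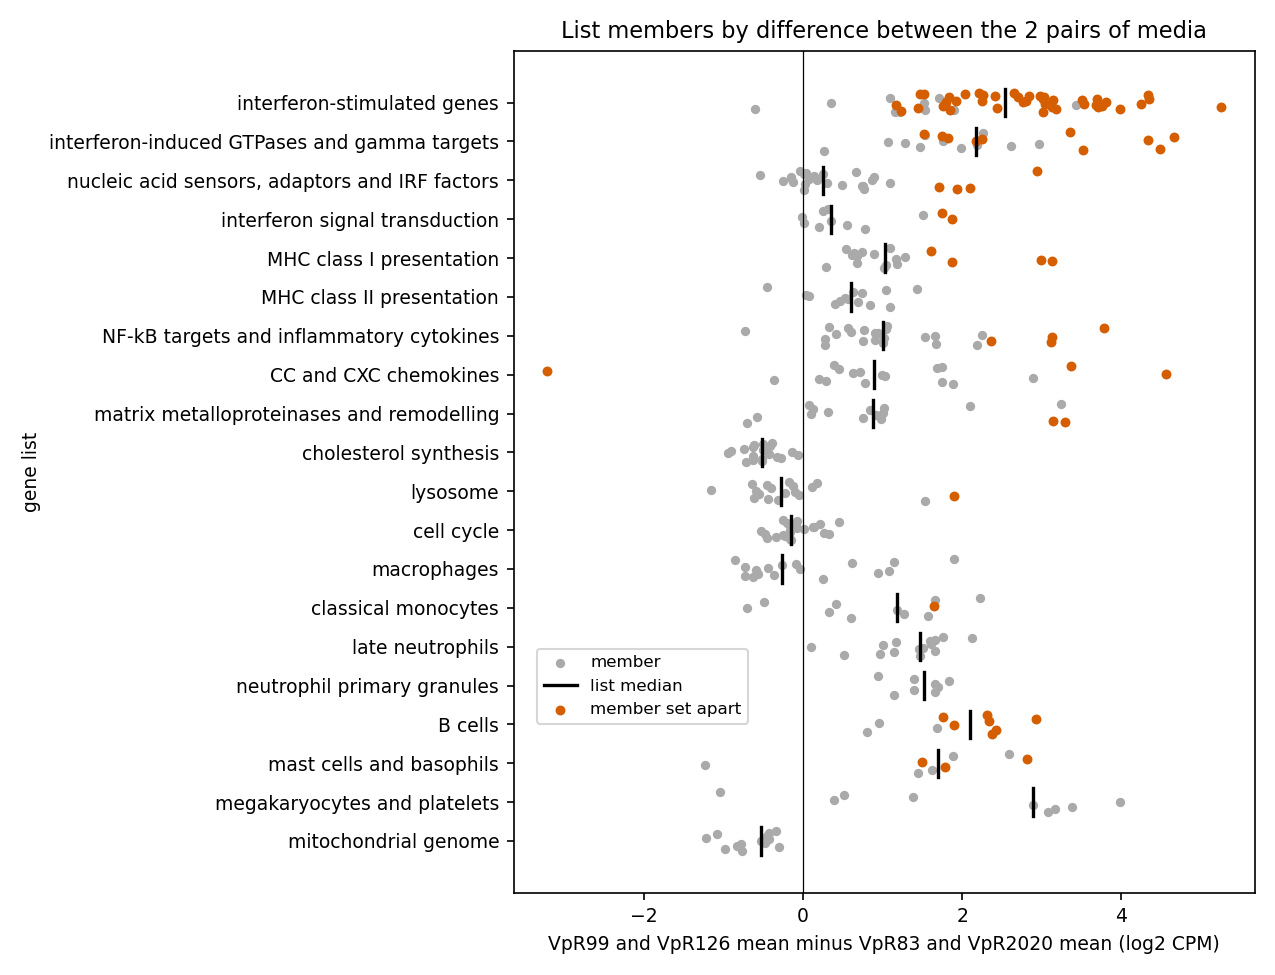
Members of 20 gene lists by the difference between the mean of VpR99 and VpR126 and the mean of VpR83 and VpR2020, in log2 CPM. Each point is 1 gene, orange where set apart, and the bar is the list median. Interferon-stimulated genes have a median of 2.54, cholesterol synthesis genes one of -0.51, and the median of all 12111 genes is -0.02.

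The controls divided the higher genes into classes. In 73 of the 287 the high pair lay at least 2-fold above the control mean in both libraries while VpR83 and VpR2020 did not both depart from it, and 37 of these 73 were in the interferon lists. In 27 genes both pairs were above control, as in Mmp12 and Saa3. In 83 genes VpR83 and VpR2020 were at least 2-fold below control while the high pair did not both depart from it, and in 86 genes both pairs were below. With 1 medium left out in turn, by which fewer libraries had to lie apart, the 73 became 71 (VpR83), 299 (VpR99), 113 (VpR126) and 90 (VpR2020). In the same order the 27 became 72, 124, 62 and 70, the 83 became 159, 165, 150 and 207, and the 86 became 121, 173, 178 and 197. Of the 211 higher genes without an interferon mark, 82 lay below control in both pairs, 71 below it only under VpR83 and VpR2020 medium, 31 above it only under VpR99 and VpR126 medium and 16 above it in both pairs. Over all 12111 genes, 258 (2.13%) lay above control only under VpR99 and VpR126 medium and 1734 (14.3%) above it in both pairs. Below control lay 622 (5.14%) only under VpR83 and VpR2020 medium and 646 (5.33%) in both pairs. That the high pair lies nearer to control, or further above it, is fixed by the choice of higher genes.

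The promoter element was also counted by class among the genes with a window. As the pairs were chosen by interferon genes, which make up 37 of the 73 genes of the first class, these shares restate that choice in part and support nothing about the classes. The element was found in 23 of 47 genes of the first class (48.9%) and 9 of 20 genes with both pairs above control (45%). It was found in 3 of 65 genes with only VpR83 and VpR2020 below control (4.62%) and 3 of 57 genes with both pairs below (5.26%). Over all considered genes the share was 4.11%.

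**Figure D4:**
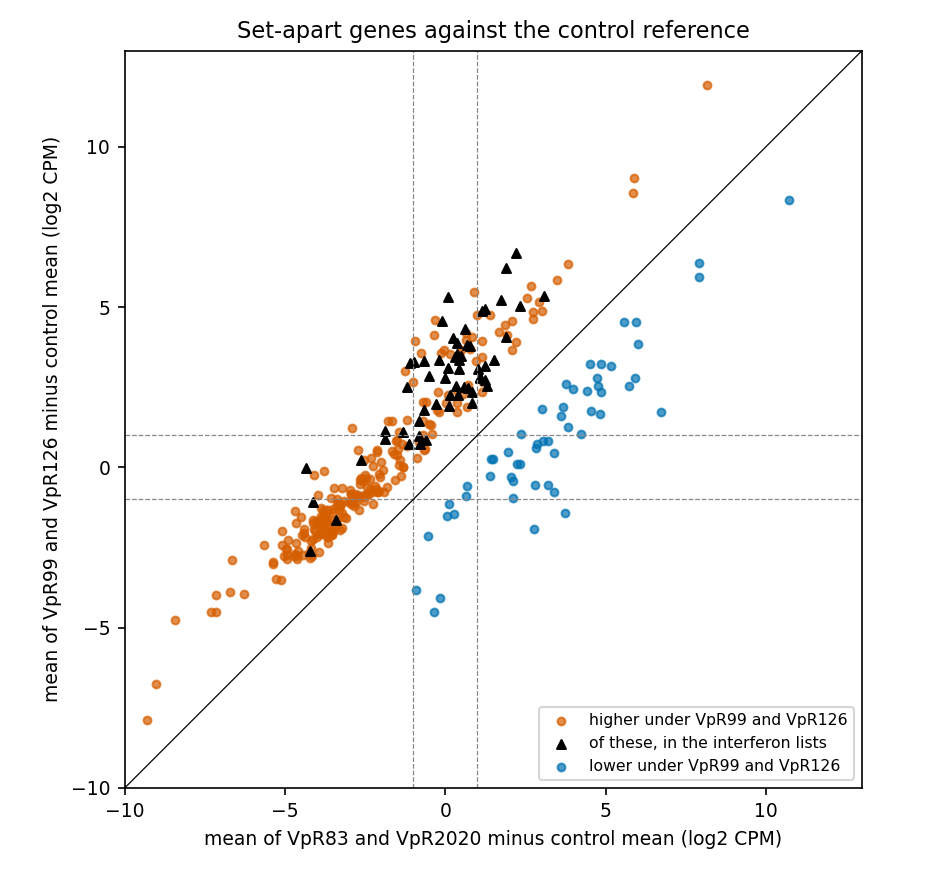
Set-apart genes by the difference of VpR83 and VpR2020 (horizontal axis) and of VpR99 and VpR126 (vertical axis) from the control mean, in log2 CPM of pair means. Dashed lines mark 2-fold from control and the solid line equal pairs. The 58 genes of the interferon lists (triangles) lie mostly above the upper dashed line near a horizontal value of 0, other higher genes (orange) are spread from lower left to upper right, and lower genes (blue) lie mostly to the right of the right dashed line.

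B cell genes were among the genes with less transcript in all media than in the controls. Of 10 measured markers of 13 listed, 7 were set apart as higher and 9 were higher without overlap (2.37% and 16.2% of all genes), with a median of 2.10. Cd79a, a chain of the B cell receptor complex, had 6.4 and 13.4 CPM under VpR83 and VpR2020 medium, 37.2 and 67.1 under VpR99 and VpR126 medium and 258 and 331 in the controls. Ms4a1, the CD20 gene, had 1.76 and 5.69 CPM against 15.3 and 38.8, and Pax5, the factor that defines the lineage, 7.83 and 16.8 against 43.1 and 75.3. The 13 markers summed to 216 and 327 CPM under VpR83 and VpR2020 medium, to 516 and 950 CPM under VpR99 and VpR126 medium and to 4076 and 4180 CPM in the controls, so the pairs did not overlap and every medium lay far below control. In addition 10 immunoglobulin segments were among the higher genes, for example Ighg2b with 0.11 and 0.276 CPM against 3.18 and 2.53 and 79.1 and 77.3 in the controls. Reads of immunoglobulin segments can be shared among copies.

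Markers of other marrow cells were also higher in part, and their part in the differences of other genes was not tested. The 15 markers of late neutrophils had a median of 1.46, with none set apart and 10 higher without overlap (16.2% of all genes), and summed to 3583 and 6807 CPM under VpR83 and VpR2020 medium and 17528 and 10518 CPM under VpR99 and VpR126 medium, against 93340 and 86261 CPM in the controls. S100a9, the most abundant of them, had 948 and 1322 CPM against 5526 and 2274. Without VpR126 or without VpR2020, 8 and 9 of the 15 were set apart. Over all genes the 287 became 554 and 622 under these settings, 456 without VpR83 and 885 without VpR99. Primary granule genes, which mark neutrophil precursors, were higher without overlap in 6 of 8 (median 1.52) and highest in VpR99 in all 8, with a sum of 2605 CPM against 563 in VpR126, 534 in VpR83 and 413 in VpR2020, and 8 of 8 were set apart without VpR126. Of 11 classical monocyte genes 7 were higher without overlap (median 1.19) and 1, Ly6c2 (119.8 and 129 against 518 and 291 CPM), was set apart, which became 2 without VpR83 or VpR99, 4 without VpR126 and 5 without VpR2020. Of 8 measured mast cell and basophil genes 3 were set apart as higher (Mcpt8, Kit and Hdc), against 2.37% of all genes, at levels far below the controls. Hdc, the histamine-forming enzyme gene, had 8.05 and 5.31 CPM under VpR83 and VpR2020 medium, 22.9 and 22.4 under VpR99 and VpR126 medium and 292 and 222 in the controls.

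Plasmacytoid dendritic cells, known for producing type I interferon, had 2 of 8 measured markers set apart as higher, against 2.37% of all genes. These were Spib (13.6 and 25.7 against 60.3 and 130.4 CPM) and Ly6d (2.67 and 8.57 against 22.1 and 40.8), both of which B cells express too. Siglech, a more specific marker, overlapped between the pairs, with 1.17 and 1.16 CPM against 1.05 and 4.22 and 55.1 and 50.8 in the controls, so only VpR126 stood above the other media. Megakaryocyte and platelet genes had a list median of 2.89 with 1 of 9 higher without overlap (16.2% of all genes) and none set apart. In 6 of the 9 VpR126 was the highest medium, as for Itga2b, the integrin alpha IIb gene, with 2.6 and 7.63 CPM against 7.23 and 154. The sums ran in another order, at 793 and 2514 CPM under VpR83 and VpR2020 medium and 2375 and 1684 under VpR99 and VpR126 medium, and consisted mostly of the platelet factor gene Pf4 (631 and 1861 against 1907 and 1049). Without VpR99, 6 were set apart, and without VpR2020, 5, while the count over all genes rose from 287 to 885 and 622. Macrophage markers did not separate the pairs (median -0.26, none of 17 set apart). Without overlap 3 were higher and 3 lower, against 16.2% and 17.9% of all genes. Csf1r, the receptor gene of a macrophage growth factor, had 1834 and 2654 CPM against 981 and 4738, the lowest and the highest medium both being in the high pair. The 12 epithelial and renal tumour markers summed to 205 and 257 CPM under VpR83 and VpR2020 medium, 1055 and 461 under VpR99 and VpR126 medium and 3874 and 4278 in the controls. Nearly all of this was Lcn2 (189 and 247 against 1030.1 and 451 CPM), which the late neutrophil list holds too. Of the 3 measured members Lcn2 was higher without overlap, Car9 (7.76 and 6.75 against 6.22 and 5.74) lower without overlap, and Cdh1 overlapped (7.21 and 3.15 against 17.3 and 3.71). Among the rest, Krt19 had 0 counts in all 6 libraries and Krt8 and Pax2 0 in all 4 media, and Epcam had at most 0.512 CPM under the media. The part of such cells in the other differences was not tested.

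The genes lower under VpR99 and VpR126 medium were fewer and formed no single listed group. Olfml3, a secreted olfactomedin-like protein gene, had 6.84 and 10.2 CPM under VpR83 and VpR2020 medium, 0.138 and 0.253 under VpR99 and VpR126 medium and 0.666 and 0.516 in the controls. Pmepa1, a target and inhibitor of TGF-beta signalling, had 11.1 and 21.2 CPM under VpR83 and VpR2020 medium, 0.721 and 0.886 under VpR99 and VpR126 medium and 1.27 and 1.55 in the controls. Rasgrp3, an activator of Ras proteins, had 41.9 and 37.7 CPM under VpR83 and VpR2020 medium, 3.94 and 3.8 under VpR99 and VpR126 medium and 5.39 and 5.92 in the controls. Pmepa1 and Rasgrp3 were above control only under VpR83 and VpR2020 medium, while Olfml3 was also below control under the other media.

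Col14a1, a collagen gene, showed the mirror image, with 4.24 and 3.1 CPM under VpR83 and VpR2020 medium near the controls (5.26 and 4.04) and 0.0729 and 0.295 under VpR99 and VpR126 medium. Gas6, a ligand of the receptors Axl and Mertk that bridges phagocytes to dying cells, was the most abundant of the lower genes, with 1139 and 1070.4 CPM under VpR83 and VpR2020 medium, 319 and 448 under VpR99 and VpR126 medium and 4.06 and 4.98 in the controls. Fcrls, an Fc receptor-like gene, had 348 and 290.2 CPM against 32.4 and 116. Both Gas6 and Fcrls were far above control in all media. Rnase4 (240.4 and 334 against 105 and 46.9 CPM) and Ang (12.3 and 17.6 against 5.4 and 3.33), ribonuclease genes that lie together on chromosome 14 and can share reads, were both lower. Ltc4s, the leukotriene C4 synthase gene, had 4.65 and 16.3 CPM against 0.527 and 1.65, and the metallothionein gene Mt2 44.2 and 38.3 against 16.9 and 9.88. Bach2os and the predicted gene Gm26577 are antisense transcripts, whose reads cannot be told from the opposite gene while the strand setting of the counting is unknown.

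**Figure D5:**
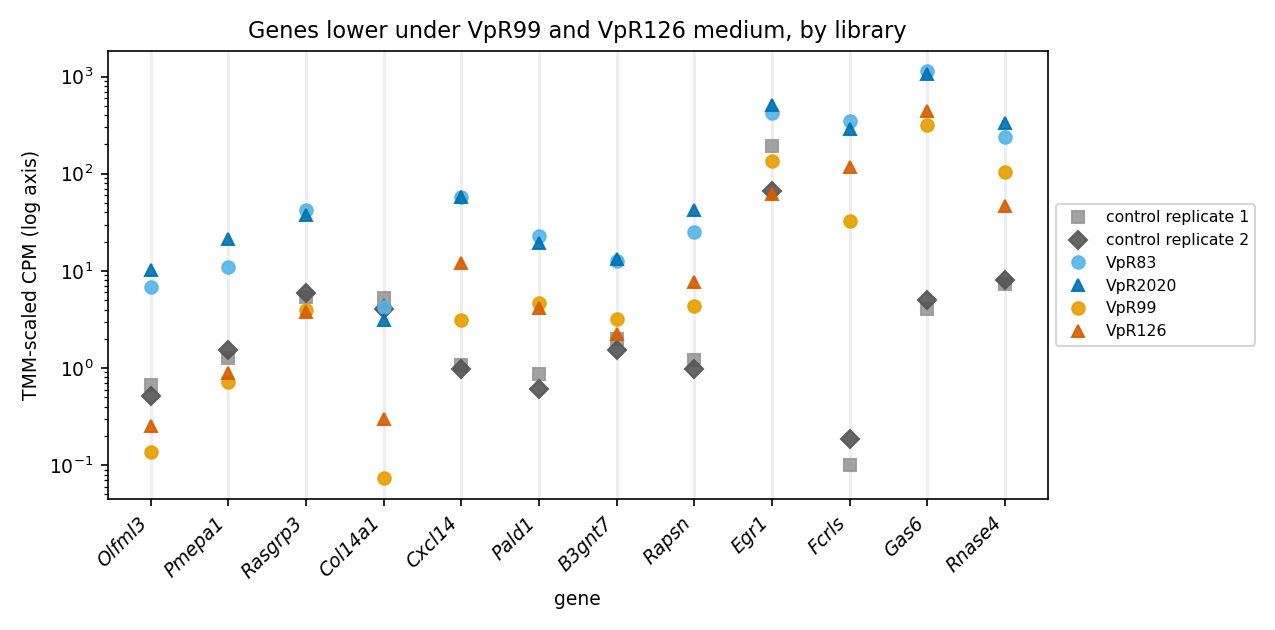
TMM-scaled CPM (log axis) of 12 genes set apart as lower, 1 point per library. VpR83 and VpR2020 (blue) lie above VpR99 and VpR126 (orange) in every gene shown, as the choice of set-apart genes fixes. The controls (grey) are nearest to the orange points in Rasgrp3 (5.39 and 5.92 CPM) and far below all media in Gas6 (4.06 and 4.98 CPM).

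Against control, 22 of the 54 lower genes were above in both pairs, 21 were above only under VpR83 and VpR2020 medium, and 7 were below only under VpR99 and VpR126 medium. Over all 12111 genes these classes held 14.3%, 5.24% and 0.776%, in that order. The choice of lower genes fixes that VpR99 and VpR126 lie lower against control than VpR83 and VpR2020. Other signs also moved with the pairs. Egr1, an immediate early transcription factor gene, was set apart at 424 and 516 CPM against 136 and 62.1, and 7 of 15 immediate early genes were lower without overlap (17.9% of all genes were), but the controls were 191 and 66.4 CPM for Egr1 and 893 and 337 for Fos. Immediate early genes respond to tissue handling, and their part in the other differences was not tested. Transcripts of the mitochondrial genome were lower without overlap in 12 of 13 genes (17.9% of all genes were), with a median of -0.52, while control replicates 1 and 2 differed from each other by a median of -1.03 (replicate 2 minus replicate 1) in these genes. Their share of all counts was 1.93% and 2.31% in VpR83 and VpR2020 and 1.89% and 1.37% in VpR99 and VpR126.

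Of 20 cholesterol synthesis genes 14 were lower without overlap (17.9% of all genes were), none was higher without overlap and none was set apart, and the median was -0.51. Hmgcs1, an early enzyme gene of the pathway, had 347 and 305 CPM under VpR83 and VpR2020 medium, 204 and 219 under VpR99 and VpR126 medium and 36.7 and 40.2 in the controls, so all media stood above control and VpR99 and VpR126 less so. Insig1, a sterol sensor gene, had 334 and 314 CPM against 136 and 211. Of 18 lysosome genes 7 were lower and 1 was higher without overlap (17.9% and 16.2% of all genes), with a median of -0.27. The exception, Ctsk (1.32 and 1.66 against 7.15 and 4.43 CPM), was set apart as higher. Cell cycle genes gave no common direction: all 23 overlapped between the pairs, as did 7973 of all 12111 genes. VpR83 and VpR99 were high (sums of 3393 and 4073 CPM) and VpR126 and VpR2020 low (1282 and 1680 CPM). Their median of -0.15 became 0.81 without VpR126 and -1.03 without VpR99.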

How the data were processed

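RNA-seq of 6 mouse bone marrow libraries was used. Per the labels' protocols, the kit was a TruSeq one from Illumina that marks strand, and Trimmomatic 0.38, STAR 2.5.2b and GRCm38 are named, per the submitters' processing notes. Deposited were unscaled whole read counts for each Ensembl gene, as the authors made them. The counting tool and its strand setting are not stated in the labels or notes. Of 45706 identifiers, 45143 matched GENCODE M21, and unmatched ones held 0.0538% to 0.0828% of a library's counts. No 2 libraries repeated each other within sampling noise (chi-square per degree of freedom of at least 35.4).

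Counts were scaled by TMM in edgeR 4.0.16 (R 4.3.3) over 15141 genes kept by filterByExpr, and log2 CPM used a prior count of 2. Genes with a mean of at least 1 CPM over the 4 media (12111) were considered, and a gene was set apart where the gap between the pairs was at least 1 log2 unit. The rule was run on simulated counts in which all media shared common means apart from planted changes. That checks the calculation only and cannot show how often unrelated differences between media give such a gap. No test was run, because the pairs came from the readout and each medium has 1 library. Differences are of pair means on the log2 scale, which understates changes of low genes. Among the media, depth limits precision most in VpR2020, and control replicate 2 is shallower still.

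The pairs, the gene lists and the naming rule were chosen with earlier results of these data known. Named were Ifit1, Isg15 and Irf7, genes with the widest gaps (15 per direction, and 15 higher ones outside the interferon lists), set-apart list members and pathway members with a stated role. Ly6a, Col5a3, Col18a1, Armcx1, Serpina3g, Rnase4, Ang, Gas6, Fcrls, Ltc4s, Mt2, Dtx1, Rasal1, Gm16675, Gm26577, Lgr5, list members that were not set apart and genes at the threshold were chosen after their values were seen. Alternatives covered scaling, the CPM minimum, the prior count, the fold of the gap, thinning of VpR99 and leaving out each library, and those on list counts and on the place against control were added after the data were seen.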

Additional observations from a re-analysis of the deposited data

How the results depend on the processing

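The 287 higher genes became 642 without a CPM minimum, 543 with a gap of 1.5-fold and 102 with a gap of 3-fold, and the 54 lower genes became 33 with a minimum of 5 CPM, 108 without a minimum, 173 at 1.5-fold and 22 at 3-fold. Leaving out 1 library gave 281 to 885 higher genes (281 and 290 without a control, 885 without VpR99, 622 without VpR2020, 554 without VpR126 and 456 without VpR83) and 54 to 270 lower genes (263 without VpR99, 104 without VpR2020, 270 without VpR126 and 151 without VpR83). Without a medium library fewer libraries must lie apart, so these counts rise by construction. Under other scalings, prior counts, a minimum of 0.5 CPM, thinning of VpR99 or leaving out a control, both counts stayed within 1.5 times. The counts of genes 2-fold apart between libraries also did under all 18 alternatives. Of 280 alternative list medians, 151 moved by more than an offset taken from the median difference between the controls in the list. This offset is not a spread and is small where the differences of single genes cancel, so the 151 depend on it. Of the 280 medians, 29, in 14 lists, changed sign, mostly without 1 medium. Of these lists, 3 had a median of at least 0.5 log2 units (nonclassical monocytes, erythroid and epithelial markers). Among higher genes with a window 8.33% held the motif lengthened by CT, against 0.481% of all considered genes with a window. At a 3-fold gap 28.2% of the higher genes held the shorter motif. Of the lower genes 0% held the longer motif (Wilson 95% interval up to 8.03%). The limits that remain are 1 library per medium, pairs chosen from the readout, an unknown strand setting and controls that may differ in culture time. Low genes are the least certain, since 95 of the 287 and 21 of the 54 had a mean under 5 CPM. No paired analysis was possible because each medium has 1 library and shares no second replicate number with the controls.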

Other observations

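The genes in the next sentences were chosen after their values were seen, and no test was run on them. C3, the central complement component gene, had 218 and 202 CPM under VpR83 and VpR2020 medium and 767 and 1170.4 under VpR99 and VpR126 medium, with 846 and 827 in the controls, so the high pair lay near control and the low pair below. The formyl peptide receptor genes Fpr1 and Fpr2, which guide phagocytes to bacterial products, had 16 and 22.8 and 12.9 and 15.1 CPM in the low pair and 74 and 179.8 and 49.5 and 124 in the high pair. Lpl, the lipoprotein lipase gene, had 351 and 374 CPM under VpR83 and VpR2020 medium, 1996 and 1236 under VpR99 and VpR126 medium and 49.8 and 60.1 in the controls, and was above control in every medium. Slc7a11, a cystine transporter gene, had 12.5 and 8.85 CPM against 36.4 and 33.4, with 7.12 and 7.18 in the controls, and Casp4, the gene of an inflammatory caspase, 13.5 and 12.8 against 39.5 and 51.4. Lpl was higher in VpR99 than in VpR126, and Fpr1 and Fpr2 were higher in VpR126.

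Some genes of immature haematopoietic and lymphoid cells were also higher in the high pair. Myb, a factor of progenitor cells, had 15.1 and 15.8 CPM under VpR83 and VpR2020 medium, 62.5 and 57.8 under VpR99 and VpR126 medium and 216 and 207 in the controls. Rag1, which encodes a recombinase of lymphocyte precursors, had 6.04 and 13 CPM against 28.1 and 54.4, with 45.4 and 61.1 in the controls, so VpR126 reached the control level. Erg, a factor of stem cells and megakaryocytes, had 2.23 and 2.49 CPM against 11.5 and 5.83 and 34.9 and 35.4 in the controls. Among the lower genes, Gdf15, a stress-induced cytokine gene, had 53.3 and 68.6 CPM against 20.2 and 25.2, and the transcription factor gene Bhlhe41 had 121 and 91.4 against 43.2 and 26.1, both far above the controls (2.8 and 0.282 and 5.79 and 2.21 CPM).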
